A study of Arabidopsis thaliana with 4 samples.

Results

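The gl3 egl3 double mutant of Arabidopsis thaliana was set against wild type on ATH1 arrays, with 1 array on each side, or 2 of the 4 arrays in the series. The comparison was defined as the log2 value in gl3 egl3 minus the log2 value in wild type, for each of 22746 probe sets. Both the gl3 egl3 and the wild-type seedlings were 20 days old. The other 2 arrays, shown beside them, came from ttg1 seedlings of the same age and from gl1 seedlings of an age the labels do not give. The study as a whole sought transcripts enriched in trichomes, the hairs of the leaf surface that all these mutants lack.

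Growth was at 22 °C under days of 16 h light and 8 h dark. Total RNA was isolated on RNeasy columns, and 25 ng was amplified isothermally with the NuGEN Ovation system and labelled with biotin. The labels state that green tissue was taken for ttg1, gl1 and wild type and do not state a tissue for gl3 egl3. The labels of gl3 egl3 and ttg1 name Landsberg erecta (L.er) wild type as the reference, whereas those of gl1 and of the wild-type array give no accession. Accession and genotype therefore cannot be told apart in gl3 egl3. Nothing says how many plants went into a sample. The series description writes the double mutant as gl3egl1 while the sample title reads gl3egl3, and the title was followed.

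GL3 and EGL3 are closely related bHLH transcription factors. With a MYB partner such as GL1 and the WD40 protein TTG1 they form the complex that starts trichome fate in the leaf epidermis. The same bHLH proteins, with other MYB partners, switch on the late genes of anthocyanin synthesis. The complex also activates single-repeat MYB genes such as TRY, whose products inhibit it in neighbouring cells. No probe set is named here for GL3, EGL3, GL1 or TTG1, so the genotype labels were not checked against the mutated genes.

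With 1 array per genotype there is no replicate spread. Every difference below is a description of these arrays, without a standard deviation or a p-value, and a difference of at least 1 on the log2 scale (2-fold) was used as the size rule. The deposited columns differed in distribution, with medians of 6.38 in gl3 egl3, 6.33 in ttg1, 6.40 in gl1 and 5.93 in wild type and SDs across probe sets of 2.01, 2.34, 2.38 and 2.41. The columns were therefore quantile normalized to one distribution. Differences and levels are log2 quantile-normalized values unless the deposited ones are named. A probe set was counted if its highest value among the 4 arrays reached a floor of 6.26, the median of all values, which 12601 did.

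By that rule 836 probe sets (6.63%) were higher and 929 (7.37%) were lower in gl3 egl3 than in wild type. In the deposited values the counts were 1561 higher (12.4%) and 485 lower (3.85%). All 836 higher probe sets were also 2-fold higher in the deposited values, and 485 of the 929 lower ones were 2-fold lower in them. In bins of mean level the median deposited difference ran from 0.23 to 1.21, so the deposited values favour higher calls. These counts are therefore no check on either set. Among the 6756 named genes that reached the floor, 461 (6.82%) were higher and 508 (7.52%) lower, with a median difference of 0.01. As deposited, 12.9% of these genes were higher and 3.66% lower. Against the same wild-type array, 104 genes (1.54%) were higher and 271 (4.01%) lower in ttg1, and 53 (0.784%) were higher and 126 (1.87%) lower in gl1. The 3 comparisons share that array. The gl3 egl3 value lay at least 1 above every other array for 224 genes (3.32%) and at least 1 below every other array for 120 (1.78%).

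**Figure D1:**
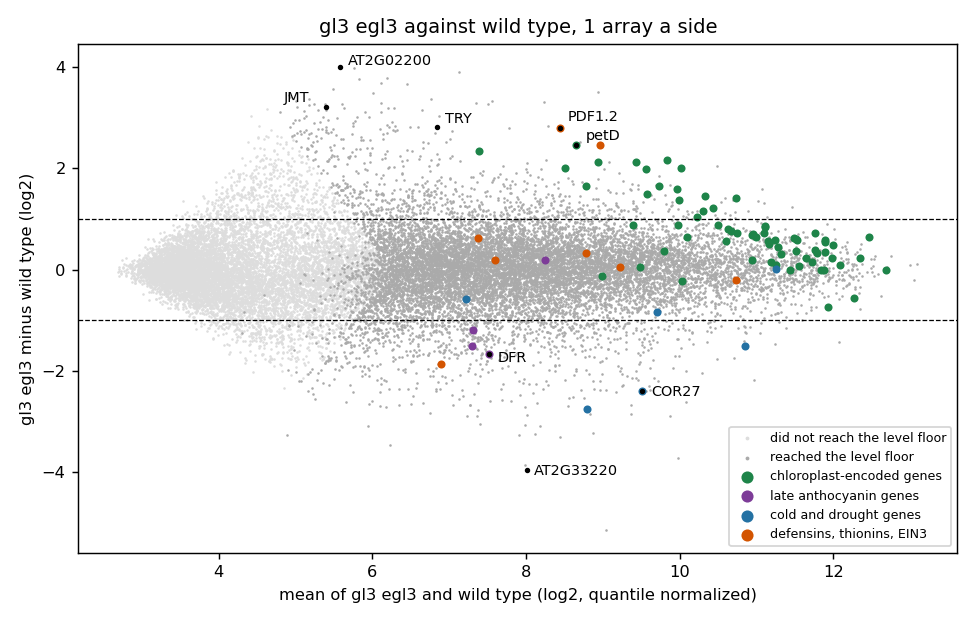
Difference of gl3 egl3 minus wild type (log2) against the mean of both arrays (log2, quantile normalized), 1 point per probe set, with gene lists in colour and dashed lines at 2-fold. Chloroplast-encoded genes (green) lie mostly above 0, with petD at 2.46, whereas late anthocyanin and cold genes (purple and blue) lie mostly below it, with DFR at -1.67 and COR27 at -2.39.

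Higher and lower probe sets differed in where they lay. Of the 836 higher probe sets, wild type was under the floor for 431 (51.6%), and for 312 (37.3%) gl3 egl3 was the only array to reach it. Those 312 were counted only because gl3 egl3 was high. Of the 929 lower probe sets, 34 (3.66%) had a wild-type value under the floor. The deposited values of gl3 egl3 were also shifted upward at the dim end. Probe sets with a mean of 2 to 4 had a median deposited difference of 1.21, against 0.23 for those with a mean of 8 to 10, and quantile normalization left medians of -0.04 and 0.04 there. The 15 probe sets for bacterial transcripts that were not spiked in had a median deposited value of 4.11 in gl3 egl3, 3.15 in ttg1, 3.29 in gl1 and 3.06 in wild type. The part of this raised background in the higher dim genes was not tested.

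**Figure D2:**
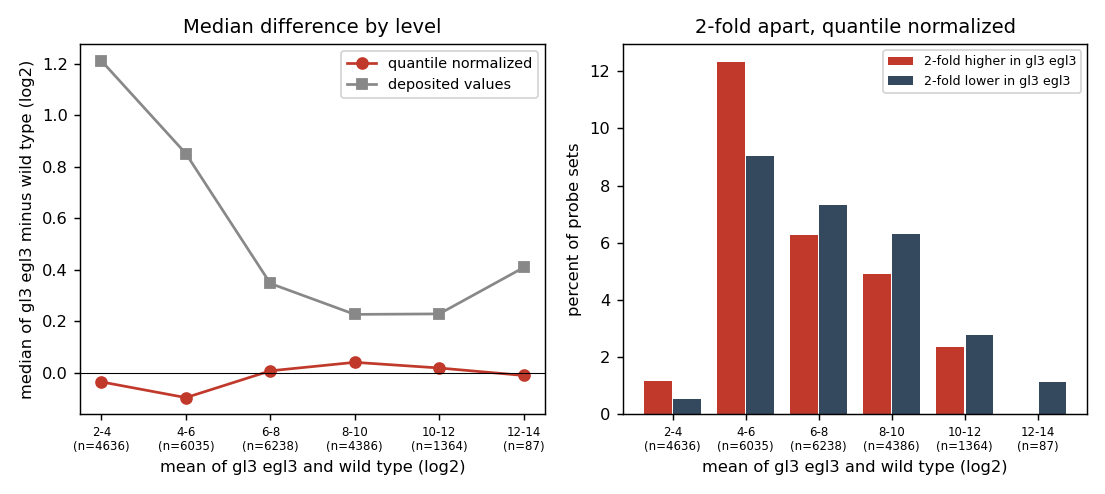
Left, median of gl3 egl3 minus wild type (log2) in bins of mean level (log2) for quantile-normalized and deposited values. Right, percent of the probe sets in each bin that were 2-fold higher or lower after quantile normalization; deposited differences reach 1.21 in the dimmest bin, and normalized medians stay near 0.

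TRY was the trichome gene that stood apart. Its product is the single-repeat MYB that holds neighbouring cells back from trichome fate, and its value was 8.24 in gl3 egl3, 5.56 in ttg1, 4.84 in gl1 and 5.44 in wild type. The gl3 egl3 array was the only one in which TRY reached the floor, and it lay 2.69 above the highest of the others. The difference from wild type was 2.81, a 7.0-fold higher signal. As deposited it was 3.22. Of 20 trichome fate genes listed, 4 are named by a probe set and 2 reached the floor. SIM, a cyclin-dependent kinase inhibitor that keeps the trichome a single endoreduplicating cell, was at 6.98 in gl3 egl3 and 6.89 in wild type, a difference of 0.09. ATMYC1, a bHLH gene of the same subgroup as GL3, and the zinc finger gene GIS stayed under the floor in all 4 arrays, with differences of -0.28 and 0.23.

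Genes that shape the growing trichome were not 2-fold apart. Of 17 listed, 5 are named and all 5 reached the floor. AN, which controls branching, was at 7.96 in gl3 egl3 and 7.45 in wild type, a difference of 0.52. BRK1 and PIR121, subunits of the SCAR/WAVE complex that directs actin assembly, differed by -0.28 and 0.09. AT5G06700, also called TRICHOME BIREFRINGENCE and needed for crystalline cellulose in trichome walls, was at 7.87 in gl3 egl3 and 8.45 in wild type, a difference of -0.59. The median over these 5 genes was 0.09.

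Most late anthocyanin genes above the floor were lower in gl3 egl3. Of 17 listed, 6 are named and 4 reached the floor; 3 of the 4 were 2-fold lower, where 7.52% of all genes were. DFR, which reduces dihydroflavonols to the precursors of anthocyanins, was at 6.68 in gl3 egl3, 5.54 in ttg1, 9.66 in gl1 and 8.35 in wild type. Both L.er-labelled mutants were thus below wild type and gl1 was above it. The gl3 egl3 difference was -1.67, a 3.18-fold lower signal.

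AT4G14090, entered in the list as an anthocyanin glucosyltransferase, was at 6.54 in gl3 egl3, 6.11 in ttg1, 8.55 in gl1 and 8.05 in wild type, a difference of -1.51 between gl3 egl3 and wild type. UF3GT, another glycosyltransferase that decorates anthocyanins, was at 6.71 in gl3 egl3, 6.83 in ttg1, 8.15 in gl1 and 7.90 in wild type. Its difference of -1.19 was -0.91 in the deposited values, so 2 of the 3 genes were 2-fold lower as deposited, where 3.66% of all genes were. For these 3 genes gl3 egl3 and ttg1 lay below both other arrays. UGT78D2, a flavonoid 3-O-glucosyltransferase that serves flavonols as well, was at 8.34 in gl3 egl3 and 8.14 in wild type. AT5MAT, an anthocyanin malonyltransferase gene, and BAN, of the proanthocyanidin branch in the seed coat, did not reach the floor. The median over the 4 genes was -1.35 in gl3 egl3, beside -1.5 in ttg1 and 0.56 in gl1.

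Flavonol glycosylation, which branches off before DFR, differed less. UGT78D1, a flavonol rhamnosyltransferase, was at 10.06 in gl3 egl3 and 10.04 in wild type. AT1G06000, listed with the flavonol glycosyltransferases, was at 7.54 in gl3 egl3 and 8.27 in wild type, a difference of -0.74. UGT78D3 stayed under the floor.

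**Figure D3:**
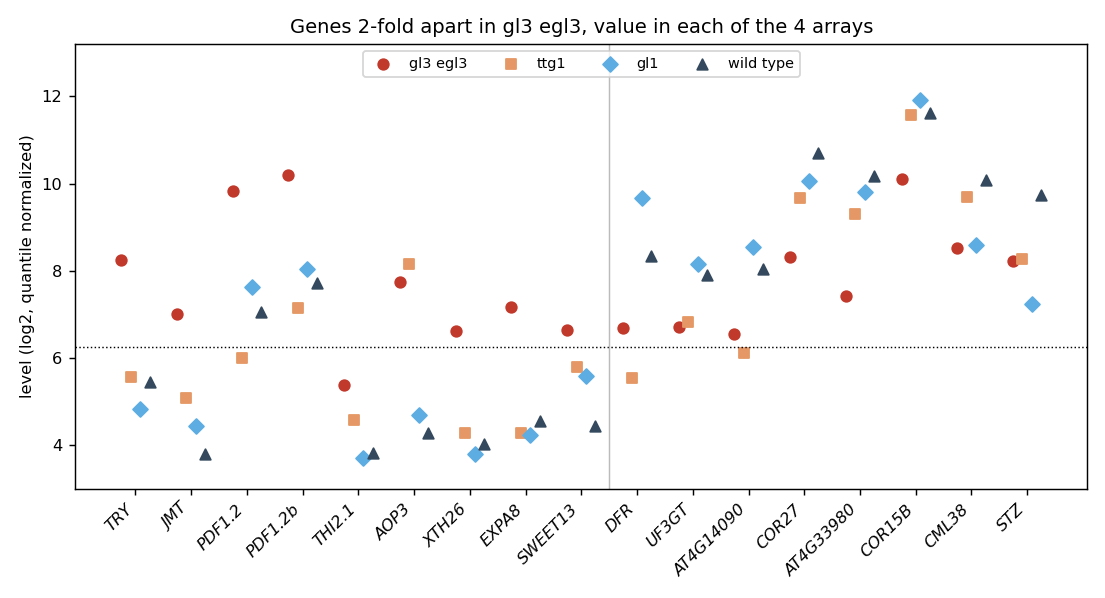
Level (log2, quantile normalized) of 17 genes in gl3 egl3, ttg1, gl1 and wild type, 1 point per array, with genes higher in gl3 egl3 left of the grey line and genes lower in it to the right; the dotted line is the floor of 6.26. TRY and both PDF1.2 genes are set apart in gl3 egl3 alone, AOP3 is also high in ttg1, and the late anthocyanin genes are low in gl3 egl3 and ttg1.

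Jasmonate-linked and defence peptide genes gave some of the largest differences among genes of known role. JMT, which makes methyl jasmonate from jasmonic acid, was at 7.0 in gl3 egl3, 5.08 in ttg1, 4.45 in gl1 and 3.79 in wild type. Only gl3 egl3 reached the floor, and the difference from wild type was 3.21, or 9.28-fold. PDF1.2, a plant defensin widely used as a marker of combined jasmonate and ethylene signalling, was at 9.84 in gl3 egl3, 6.0 in ttg1, 7.62 in gl1 and 7.05 in wild type. It was 6.93-fold higher in gl3 egl3 than in wild type, with wild type itself above the floor. PDF1.2b was at 10.19 in gl3 egl3, 7.14 in ttg1, 8.05 in gl1 and 7.73 in wild type. Its probe set is of the kind whose probes can bind related transcripts, so PDF1.2 and PDF1.2b, which are near-identical, may share signal.

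Other members of the same list went several ways. Of 22 entries 11 are named and 8 reached the floor, with 2 higher and 1 lower, where 6.82% and 7.52% of all genes were, and a median of 0.26. The lower one was the defensin gene PDF2.1, at 5.96 in gl3 egl3, 7.08 in ttg1, 7.16 in gl1 and 7.83 in wild type, a difference of -1.87. The defensin genes LCR68 and LCR69 differed by 0.33 and -0.20, PDF1.4 by 0.63, the thionin gene THI2.2 by 0.20 and EIN3, the ethylene transcription factor gene, by 0.06. Under the floor in every array, THI2.1, a jasmonate-inducible thionin gene, was at 5.39 in gl3 egl3 and 3.83 in wild type. LCR67, a further defensin gene under the floor, was at 5.89 in gl3 egl3 and 3.95 in wild type. The remaining member under the floor, the defensin gene PDF2.5, was at 4.34 in gl3 egl3 and 4.29 in wild type.

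Few other genes of jasmonate synthesis and signalling could be read. Of the synthesis list, JMT and OPCL1 are the 2 members named, and JMT is the 1 that was 2-fold apart. OPCL1, a peroxisomal CoA ligase of jasmonate synthesis, was at 7.69 in gl3 egl3 and 7.94 in wild type. MYC3, a bHLH factor of the jasmonate response, was at 7.76 in gl3 egl3 and 7.49 in wild type, and its relative MYC4, under the floor in every array, was at 5.42 in gl3 egl3 and 4.14 in wild type. Genes picked after their values were seen included JRG21, a jasmonate-regulated gene, at 7.65 in gl3 egl3, 7.38 in ttg1, 5.56 in gl1 and 5.98 in wild type. CHAT, which encodes an acetyltransferase for a green leaf volatile, reached the floor in gl3 egl3 alone. It showed the same order, at 6.29 in gl3 egl3, 6.02 in ttg1, 4.56 in gl1 and 4.77 in wild type. Of the salicylate list, the only members named were SAG101, with a difference of -0.23, and GRX480, with 0.34.

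Some cold-regulated genes were lower. All 6 named of 26 listed reached the floor and 3 of the 6 were 2-fold lower, also in the deposited values, where 7.52% of all genes (3.66% deposited) were. The median was -1.18. COR27, a cold-induced regulator that also acts with the clock, was at 8.32 in gl3 egl3, 9.67 in ttg1, 10.06 in gl1 and 10.71 in wild type. Its difference of -2.39 is a 5.23-fold lower signal. AT4G33980, from the same list, was at 7.42 in gl3 egl3, 9.30 in ttg1, 9.81 in gl1 and 10.17 in wild type, or 6.73-fold lower in gl3 egl3 than in wild type. For both genes gl3 egl3 lay more than 1 below every other array.

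The chloroplast-protecting protein gene COR15B was at 10.10 in gl3 egl3, 11.58 in ttg1, 11.91 in gl1 and 11.61 in wild type. Its neighbour COR15A was at 9.28 in gl3 egl3, 10.78 in ttg1, 10.92 in gl1 and 10.12 in wild type, a difference of -0.84. The dehydrin genes LTI30 and COR47 differed by -0.57 and 0.02. Of the clock genes, CCL was at 11.83 in gl3 egl3 and 11.54 in wild type. GI, a gene that peaks late in the day, was at 5.30 in gl3 egl3, 6.58 in ttg1, 6.47 in gl1 and 5.38 in wild type. Its values in gl3 egl3 and wild type were thus under the floor. The labels give no hour of harvest.

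Several rapid touch and wound genes were lower in gl3 egl3 than in wild type. Of 25 listed 7 are named and 6 reached the floor; 4 were 2-fold lower in gl3 egl3, 1 in ttg1 and 6 in gl1, where 7.52%, 4.01% and 1.87% of all genes were. As deposited, 2 were lower in gl3 egl3, where 3.66% of all genes were. These comparisons share the wild-type array. STZ, the zinc finger repressor gene also called ZAT10, was at 8.22 in gl3 egl3, 8.27 in ttg1, 7.24 in gl1 and 9.74 in wild type. The calmodulin-like gene CML38 was at 8.52 in gl3 egl3, 9.69 in ttg1, 8.60 in gl1 and 10.08 in wild type. WRKY53, a transcription factor gene of stress and leaf senescence, was at 6.64 in gl3 egl3, 7.09 in ttg1, 6.56 in gl1 and 7.90 in wild type. In all 3 genes wild type was the highest array. PUB22, a ubiquitin ligase gene that dampens immune signalling, differed by -1.03, and PUB23 and CML37 by -0.78 and -0.37. The median over the list, -1.15 against wild type alone, was -0.31 against the mean of wild type and gl1.

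In the calmodulin-like CML family 6 of 7 genes reached the floor and 2 were lower, where 7.52% of all genes were. As deposited 1 was lower, where 3.66% of all genes were. Against the same wild-type array 2 were lower in ttg1 and 4 in gl1, where 4.01% and 1.87% of all genes were. Besides CML38, CML23 was at 5.96 in gl3 egl3, 5.82 in ttg1, 6.11 in gl1 and 7.25 in wild type. CML30 was at 8.79 in gl3 egl3 and 8.69 in wild type.

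Among UGT genes, which encode glycosyltransferases of small molecules, 25 of 47 reached the floor, with 6 lower and 1 higher, where 7.52% and 6.82% of all genes were. As deposited 4 were lower, where 3.66% of all genes were. In gl1 5 were lower against the same wild-type array, where 1.87% of all genes were. UGT73B5, UGT73B4 and UGT73C1 belong to a stress-responsive clade, and they differed by -1.80, -1.53 and -1.75. UGT76B1, which glucosylates isoleucic acid and salicylic acid, was at 6.58 in gl3 egl3, 8.04 in ttg1, 6.76 in gl1 and 8.25 in wild type. UGT85A4 and UGT71B1 differed by -1.34 and -1.12. UGT72B3 was the higher member, at 7.0 in gl3 egl3, 5.50 in ttg1, 5.64 in gl1 and 5.31 in wild type, and it was counted only because gl3 egl3 was above the floor. These UGT genes were singled out after their values were seen.

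Many genes of the chloroplast genome had higher values, 18 of them by the size rule. That genome encodes core subunits of the photosystems, the cytochrome b6f complex, ATP synthase, the NADH dehydrogenase-like complex, a bacterial-type RNA polymerase and part of the plastid ribosome. Of its 69 named genes 68 reached the floor, none through gl3 egl3 alone. In gl3 egl3 18 of the 68 were 2-fold higher and 0 were lower, where 6.82% and 7.52% of all genes were. The median was 0.62 in gl3 egl3 (0.92 deposited), 0.01 in ttg1 and -0.08 in gl1. In 59 of the 68 genes gl3 egl3 was the highest array, and in 0 it was the lowest. The matching shares over all genes were not counted. In 13 of the 68 gl3 egl3 lay at least 1 above every other array, where 3.32% of all genes did. The chloroplast genes were picked out with earlier results in view, so the counts are a description.

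The 4 genes of the RNA polymerase had the highest median, 1.52. The rpoB gene was at 8.55 in gl3 egl3, 6.49 in ttg1, 6.16 in gl1 and 6.21 in wild type, a difference of 2.34. The rpoC1 and rpoC2 genes differed by 2.0 and 1.05, and rpoA by 0.24. The genes rpoB, rpoC1 and rpoC2 share an operon, while rpoA lies among ribosomal protein genes. Their wild-type levels differed too, at 6.21 for rpoB, 9.01 for rpoC1, 9.70 for rpoC2 and 11.52 for rpoA. Whether operon or level plays a part was not tested.

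Cytochrome b6f, which carries electrons between the photosystems, followed with 3 of 6 genes higher and a median of 1.27. Its subunit gene petD was at 9.88 in gl3 egl3, 7.89 in ttg1, 7.29 in gl1 and 7.42 in wild type, or 5.51-fold higher in gl3 egl3 than in wild type. The small-subunit genes petN and petG differed by 2.01 and 1.65, and petB, which lies in one operon with petD, by 0.59. For petD, petN and petG gl3 egl3 stood above all 3 other arrays.

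Of the NADH dehydrogenase-like complex, 9 of 10 named genes reached the floor, 3 were higher and the median was 0.71. The ndhJ gene was at 10.5 in gl3 egl3, 8.76 in ttg1, 8.69 in gl1 and 8.37 in wild type. The ndhG and ndhH genes differed by 1.65 and 1.5, and ndhC by 0.10. Of the 6 ATP synthase genes 2 were higher, with atpI at 10 in gl3 egl3, 7.96 in ttg1, 8.03 in gl1 and 7.88 in wild type and atpA at a difference of 1.22. The atpB gene, at 12.13 in gl3 egl3 and 12.04 in wild type, was not apart.

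Most photosystem genes were not 2-fold apart. Of 5 photosystem I genes 1 was higher, psaC, at 11.44 in gl3 egl3, 9.36 in ttg1, 9.07 in gl1 and 10.03 in wild type. The reaction centre gene psaB was at 12.69 in both gl3 egl3 and wild type. Of 15 photosystem II genes 2 were higher, psbN by 1.37 and psbI by 1.16, and the median was 0.37. The D1 protein gene psbA was at 11.83 in gl3 egl3 and 11.84 in wild type. The lowest differences of the whole set were psbM, at 11.57 in gl3 egl3 and 12.29 in wild type, and psbC, at 11.99 in gl3 egl3 and 12.55 in wild type.

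Plastid ribosomal protein genes were mostly not 2-fold apart. The 7 large-subunit (rpl) genes differed by 0.19 to 0.85 with a median of 0.58, and none was 2-fold apart. The 8 small-subunit (rps) genes ran from -0.01 for rps2 to 1.59, with a median of 0.63 and rps14 alone 2-fold higher, at 10.76 in gl3 egl3, 9.24 in ttg1, 8.34 in gl1 and 9.16 in wild type. Among the remaining 8 genes, rbcL, the large subunit of Rubisco, was at 10.92 in gl3 egl3, 9.62 in ttg1, 9.11 in gl1 and 8.75 in wild type. The accD gene, for a subunit of the acetyl-CoA carboxylase of fatty acid synthesis, was at 10.55 in gl3 egl3, 9.81 in ttg1, 9.34 in gl1 and 8.57 in wild type. The photosystem assembly gene ycf3 differed by 1.46, and matK, a splicing factor gene, by 0.16.

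**Figure D4:**
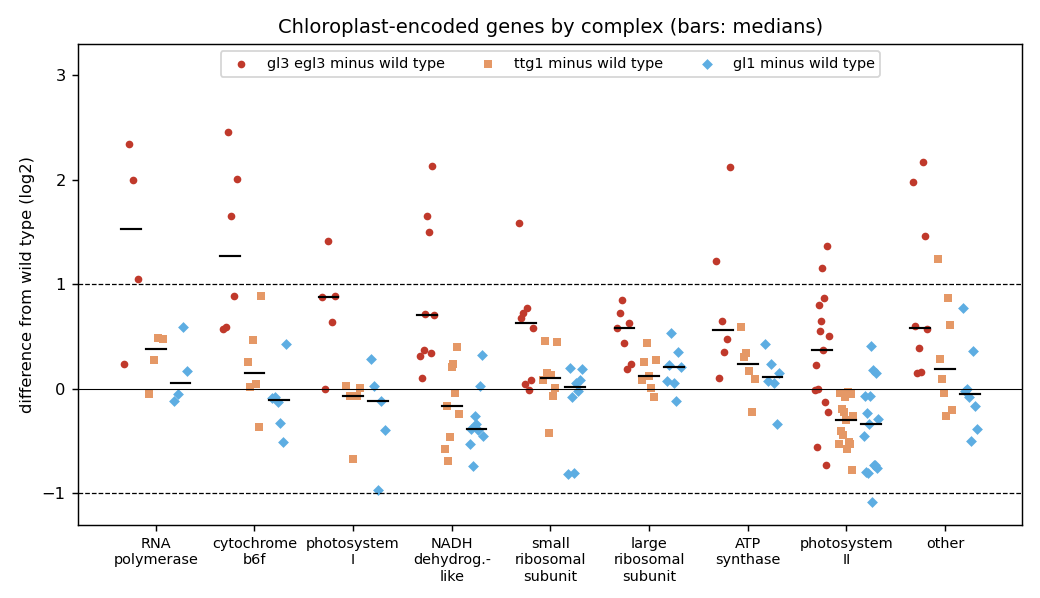
Difference from wild type (log2, quantile normalized) of the 68 chloroplast-encoded genes that reached the floor, grouped by complex, for gl3 egl3, ttg1 and gl1, which share 1 wild-type array; bars are medians and dashed lines mark 2-fold. In gl3 egl3 the medians run from 0.37 for photosystem II to 1.52 for RNA polymerase, and those of ttg1 and gl1 lie between -0.38 and 0.38.

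The size of the difference varied with the wild-type signal of the probe set. Of 23 chloroplast genes with wild type below 10, 17 were higher in gl3 egl3, beside 7.46% of the 6124 genes of all kinds at that level. Of 45 with wild type at 10 or above, 1 was higher, beside 0.633% of 632. The medians were 1.5 and 0.48. With wild type from 8 to 10.5, 13 of 25 chloroplast genes were higher and 0 lower, beside 2.93% and 8.64% of 2523 genes. The 18 higher genes had wild-type values of 6.21 to 10.03.

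Of 9 named nuclear genes of photosynthesis, 1 was 2-fold higher, where 6.82% of all genes were. The median was 0.34, with 8 genes above 0 and 1 below. Their wild-type values ran from 8.01 to 12.19. Chloroplast genes with wild type at 10 or above had a median of 0.48, with 1 of 45 higher. LHCB4.2, a light-harvesting protein gene of photosystem II, was at 11.30 in gl3 egl3, 10.68 in ttg1, 11.11 in gl1 and 9.87 in wild type. Its paralogs LHCB4.1 and LHCB4.3 differed by 0.17 and -0.21. RCA, the Rubisco activase gene, was at 12.30 in gl3 egl3 and 12.19 in wild type. The photosystem genes PSBW, PSAE-1, PSAN and PSBY differed by 0.55, 0.54, 0.41 and 0.34. NdhS, a nuclear subunit gene of the NADH dehydrogenase-like complex named after its value was seen, was at 11.29 in gl3 egl3, 10.83 in ttg1, 10.80 in gl1 and 10.15 in wild type.

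Of 16 mitochondrial genes 7 reached the floor and 1 was higher, where 6.82% of all genes were, and the median was -0.02. That gene was ccb382, of cytochrome c maturation, at 8.64 in gl3 egl3, 7.84 in ttg1, 7.46 in gl1 and 7.57 in wild type. The respiratory genes cox1 and nad4 differed by 0.80 and 0.61, and nad4L and nad5 by -0.68 and -0.26.

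Some control probe sets also differed between the arrays. The 5S ribosomal RNA probe set had a deposited value of 9.57 in gl3 egl3, 8.30 in ttg1, 7.97 in gl1 and 6.31 in wild type, and the 25S probe set had 7.14, 7.36, 7.57 and 7.52 in the same order. The 3′ signal exceeded the 5′ signal of actin by 4.23 in gl3 egl3, 3.74 in ttg1, 3.65 in gl1 and 3.56 in wild type. For ubiquitin the excess was 2.86 in gl3 egl3, 2.56 in ttg1, 2.18 in gl1 and 2.15 in wild type, and for GAPDH it was 1.47 in gl3 egl3 and 1.46 in wild type. Their part in the chloroplast difference was not tested. In such bulk samples, fewer cells of a type and less RNA per cell cannot be told apart.

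Cell wall genes split. Of 35 named members of the list, 20 reached the floor, 2 were higher and 4 lower, where 6.82% and 7.52% of all genes were, and the median was -0.17. As deposited 5 were higher and 0 lower, where 12.9% and 3.66% of all genes were, with a median of 0.27. The expansin gene EXPA8 was at 7.16 in gl3 egl3, 4.29 in ttg1, 4.24 in gl1 and 4.55 in wild type. XTH26, a xyloglucan endotransglucosylase gene, was at 6.63 in gl3 egl3, 4.29 in ttg1, 3.81 in gl1 and 4.04 in wild type. In both genes gl3 egl3 was the only array above the floor. EXPA16, XTH16, CSLA03 and EXPA4 were lower, by differences of -1.59, -1.18, -1.11 and -1.0. EXPA16 was under the floor in gl3 egl3 (4.18) and wild type (5.77), and its deposited difference was -0.50. Of the 6 XTH genes above the floor, XTH32 was at 7.98 in gl3 egl3 and 7.12 in wild type and XTH18 at 7.22 in gl3 egl3 and 8.18 in wild type.

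Auxin genes were mostly too dim to read. Of 17 named 4 reached the floor. YUC2, a flavin monooxygenase gene of auxin synthesis, was at 6.83 in gl3 egl3, 5.96 in ttg1, 5.62 in gl1 and 5.27 in wild type. GH3.17, which conjugates auxin to amino acids, was at 6.46 in gl3 egl3, 5.05 in ttg1, 5.30 in gl1 and 5.17 in wild type. Both passed through gl3 egl3 alone. The repressor gene IAA18, bright in all arrays, was at 7.82 in gl3 egl3, 8.46 in ttg1, 8.91 in gl1 and 9.32 in wild type. GH3.3, under the floor in gl3 egl3 and wild type, differed by -0.10. The 13 others stayed under the floor.

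All 7 named sugar and starch genes reached the floor, with 2 higher and 0 lower, where 6.82% and 7.52% of all genes were. The median was -0.46, and 0.19 as deposited. SWEET13, a sucrose exporter gene, reached the floor in gl3 egl3 alone. SWEET13 was at 6.64 in gl3 egl3, 5.80 in ttg1, 5.58 in gl1 and 4.45 in wild type. SAG29, of the same family, was at 6.07 in gl3 egl3, 6.92 in ttg1, 5.93 in gl1 and 4.92 in wild type, so that wild type was the lowest array for both. SAG29 was under the floor in gl3 egl3 and wild type and was counted through ttg1 alone. SWEET11 was at 10.10 in gl3 egl3 and 10.06 in wild type. APL3, a large-subunit gene of ADP-glucose pyrophosphorylase, was at 5.84 in gl3 egl3, 7.58 in ttg1, 7.46 in gl1 and 6.80 in wild type, a difference of -0.95 (-0.45 deposited). Its relative APL4 was under the floor in gl3 egl3 (3.91) and wild type (4.74), and its difference of -0.83 turned to 0.41 in the deposited values. The symbol PWD is carried by 2 genes. AT5G26570 was at 9.09 in gl3 egl3 and 9.76 in wild type. AT4G24450, which is not in the list, was at 7.57 in gl3 egl3, 7.74 in ttg1, 7.42 in gl1 and 6.08 in wild type.

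Several signalling and detoxification genes with known family roles were also far apart, and those of this paragraph were singled out after their values were seen. RALFL28 and GSTU23 reached the floor in gl3 egl3 alone. RALFL28, of a family of secreted peptides that bind receptor kinases, was at 7.16 in gl3 egl3, 4.78 in ttg1, 4.41 in gl1 and 4.32 in wild type. RALFL31 was at 7.86 in gl3 egl3, 6.77 in ttg1, 6.56 in gl1 and 6.51 in wild type, while the other 5 family members above the floor differed by -0.46 to 0.32. The glutathione transferase gene GSTU23 was at 6.81 in gl3 egl3, 5.91 in ttg1, 4.21 in gl1 and 4.41 in wild type, and no other of the 7 GSTU genes above the floor was 2-fold apart. CLE44, a peptide gene of vascular development, was lower, at 5.97 in gl3 egl3, 5.64 in ttg1, 8.01 in gl1 and 8.35 in wild type. The symbol stem PDF also covers the peptide deformylase genes PDF1B and PDF1A, which are no defensins, and PDF1B was at 8.94 in gl3 egl3, 8.96 in ttg1, 10.34 in gl1 and 10.21 in wild type.

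**Figure D5:**
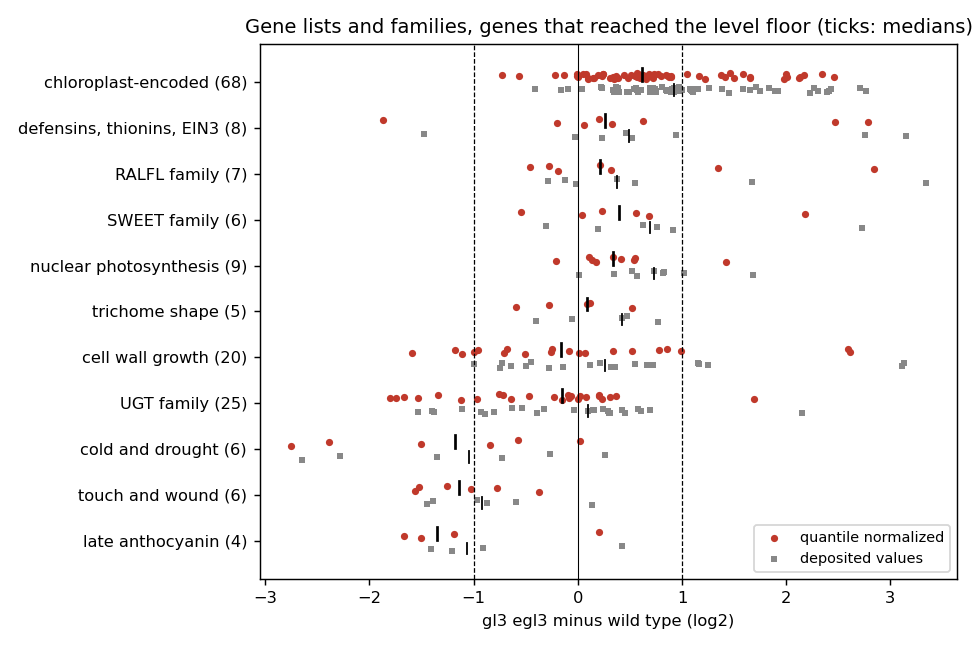
Difference of gl3 egl3 minus wild type (log2) for genes above the floor in 11 lists and families, 1 point per gene, quantile normalized (red) and deposited (grey), with ticks at the medians, dashed lines at 2-fold and the number of genes in brackets. The chloroplast-encoded median is 0.62 and the late anthocyanin, cold and touch medians are -1.35, -1.18 and -1.15; deposited medians lie to the right of the normalized ones in each list.

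Over all genes, the 15 largest higher differences ran from 3.26 to 4.0. Of these 15 genes 10 reached the floor in gl3 egl3 alone, as did 37.3% of all higher probe sets. Pseudogenes were 5 of the 15, beside 0.933% of all genes above the floor and 989 of the 13356 named genes without the floor. The probe sets of these 5 are of the kind whose probes can bind related transcripts, so their signal may come in part from other genes. A symbol is carried by 2 of the 15, where 1000 of all 6756 genes above the floor carry one. AT2G02200, a pseudogene, was at 7.58 in gl3 egl3, 3.54 in ttg1, 3.74 in gl1 and 3.58 in wild type. AT1G23570 was at 7.70 in gl3 egl3, 4.92 in ttg1, 3.66 in gl1 and 3.94 in wild type. Also among them were AT1G55960, at 9.23 in gl3 egl3, 7.03 in ttg1, 6.84 in gl1 and 5.89 in wild type, and AT2G27420, at 9.0 in gl3 egl3, 6.42 in ttg1, 6.42 in gl1 and 5.70 in wild type.

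The symbol carriers were ATYKT62 and AOP3. ATYKT62, of the SNARE proteins of membrane fusion, was at 6.68 in gl3 egl3, 4.54 in ttg1, 3.48 in gl1 and 3.34 in wild type. AOP3, an enzyme of glucosinolate side chains whose expression is known to differ among accessions, was at 7.75 in gl3 egl3, 8.15 in ttg1, 4.69 in gl1 and 4.27 in wild type. It was high in the 2 arrays whose labels name L.er and low in the other 2. AOP1, a related gene of the same locus, was at 5.80 in gl3 egl3, 6.59 in ttg1, 5.92 in gl1 and 5.66 in wild type.

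Few annotated pseudogenes reached the floor. Of 989, 63 reached the floor, and 32 of the 63 were higher and 7 lower, where 6.82% and 7.52% of all genes were. Of the 63, 31 reached the floor in gl3 egl3 alone, so they were counted only because gl3 egl3 was high. The count of 32 therefore cannot be read against the 6.82%. Without the floor, 69 of the 989 were higher and 29 lower. Of all 13356 named genes, 840 (6.29%) were higher and 769 (5.76%) lower without the floor.

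Some genes, in part the same ones, lay far above every other array. The 8 genes with the largest gap were 2.95 to 3.84 above the highest of ttg1, gl1 and wild type, and all 8 reached the floor in gl3 egl3 alone. AT3G53770 was at 7.88 in gl3 egl3, 4.88 in ttg1, 4.42 in gl1 and 4.69 in wild type. AT5G62080 was at 7.02 in gl3 egl3, 3.76 in ttg1, 3.67 in gl1 and 3.75 in wild type.

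Most of the largest lower differences fell on genes that were also low in ttg1. The 15 largest ran from -2.69 to -3.95, and in 10 of the 15 ttg1 lay within 1 of gl3 egl3. Among the 15 largest higher differences that held for 1, and the share over all genes was not counted. Of the lower genes, AT4G22470 and AT4G33980 were less than 2-fold lower in ttg1, with differences from wild type of -0.18 and -0.87. AT2G33220 was at 6.03 in gl3 egl3, 7.35 in ttg1, 10.58 in gl1 and 9.98 in wild type, a 15.5-fold lower signal in gl3 egl3 than in wild type. AT2G25510 was at 6.06 in gl3 egl3, 6.81 in ttg1, 10.22 in gl1 and 9.91 in wild type. AT5G49440 was at 6.27 in gl3 egl3, 6.68 in ttg1, 9.51 in gl1 and 9.53 in wild type. For AT2G33220, AT2G25510 and AT5G49440 both mutants with L.er in their labels were low, and gl1 was near wild type.

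Some genes of this set carry a symbol or alias. AT3G58730, also called VHA-D, for a subunit of the vacuolar proton pump, was at 6.64 in gl3 egl3, 7.24 in ttg1, 9.51 in gl1 and 9.73 in wild type. ECS1 was at 7.94 in gl3 egl3, 8.69 in ttg1, 10.96 in gl1 and 10.78 in wild type. ZW9 was at 5.34 in gl3 egl3, 5.97 in ttg1, 8.08 in gl1 and 8.17 in wild type.

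A rule on the gap to the other arrays also named lower genes, some of them among those 15. The 8 with the largest gap lay 1.72 to 2.02 below the lowest other array. AT4G20860 was at 7.26 in gl3 egl3, 9.28 in ttg1, 9.58 in gl1 and 10.49 in wild type. AT4G22470 was at 6.57 in gl3 egl3, 9.26 in ttg1, 8.53 in gl1 and 9.44 in wild type. AT4G30650 was at 8.59 in gl3 egl3, 10.53 in ttg1, 10.73 in gl1 and 10.73 in wild type. AT4G33980, the cold-list gene above, belongs to this group too.

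No marker of another tissue above the floor was 2-fold apart. Of the root list 2 of 25 are named. PYK10, a beta-glucosidase typical of roots and hypocotyls, was at 10.91 in gl3 egl3, 11.18 in ttg1, 11.34 in gl1 and 11.18 in wild type, and JAL34 differed by 0.10. The labels give no tissue for gl3 egl3. Wild type, labelled as green tissue, was itself bright for PYK10 (11.18) and JAL34 (10.15). These 2 genes therefore cannot tell which tissue the gl3 egl3 sample held. The root hair genes EXPA7 and EXPA18 and the flower genes AMS and SPL stayed under the floor in all 4 arrays. STOMAGEN, a mesophyll-made peptide that promotes stomata, was at 10.78 in gl3 egl3 and 10.70 in wild type, and FMA, the guard cell factor gene FAMA, was at 6.77 in gl3 egl3 and 7.46 in wild type. CR4, an epidermal receptor kinase gene, was at 6.49 in gl3 egl3 and 6.57 in wild type. LEA4-5, a seed maturation gene, was at 5.63 in gl3 egl3 and 6.33 in wild type.

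Of 23 gene families by symbol with at least 6 genes above the floor, holding 195 such genes, 8 had no member 2-fold apart. Their medians ran from -0.46 for XTH to 0.63 for rps, beside 0.01 for all genes. Thus the plastid ribosomal families lay at the upper end of these families and the xyloglucan-modifying family at the lower end.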

How the data were processed

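The authors deposited 1 log2 value per probe set and array, made with RMA per the submitters' processing notes. The version of RMA and the scaling between columns are not given in the sources. All wild-type values are multiples of 0.005, so that column may be rounded or a mean of 2 columns. From 22810 probe sets, 64 controls were left out, and the 4 columns were quantile normalized with limma 3.58.1 in R 4.3.3, a step checked on simulated data. Tables were made with pandas 2.3.3. Names come from the platform annotation, updated through Entrez numbers to RefSeq genes of TAIR10.1. A single gene is named by 13513 of the 22746 analysed probe sets, of which 13436 matched RefSeq. Left unnamed were 503 with several genes and 8730 with none listed. Where a gene has several probe sets, the one with the highest mean stands for it.

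No test was run, since 1 array per genotype leaves no replicate spread; precision is limited by the number of arrays. Named genes are the 15 per direction with the largest difference (2-fold also as deposited and after cyclic loess), the 8 per direction farthest from the other arrays, members of 33 gene lists, and families by symbol with at least 6 genes above the floor and either a median at least 0.5 from 0 or many members 2-fold apart. The lists and rules were chosen with earlier results of these data known. Chloroplast genes were matched by RefSeq chromosome and mitochondrial genes by symbol, after locus codes gave no match. Alternatives were the deposited values, median subtraction, cyclic loess, normalization of both arrays alone, other level filters, other references and a size of 1.5.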

Additional observations from a re-analysis of the deposited data

Results flagged for a closer look

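In PDF1.2 the difference from wild type was 2.79 in gl3 egl3 and -1.05 in ttg1, in opposite directions. In DFR it was -1.67 in gl3 egl3 and 1.31 in gl1, and in UPB1, a bHLH gene of root growth that was not otherwise described, it was 1.07 in gl3 egl3 and -1.78 in gl1. These contrasts between mutants share 1 wild-type array, rest on 1 array each and were not tested. Outside the analysed probe sets, the 5S ribosomal RNA control was higher by 3.27 (log2, deposited) in gl3 egl3 than in wild type.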

How the results depend on the processing

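No paired analysis was possible because each genotype has 1 array, and no replicate could be left out. The split of 836 higher and 929 lower probe sets (47.4% higher) depended on the scaling: it was 1561 and 485 (76.3%) in the deposited values and 668 and 1238 (35.0%) with each column's median subtracted, while cyclic loess gave 835 and 859. Without a level filter 1436 were higher, with a size of 1.5 on the log2 scale 353 were higher and 351 lower, and against the mean of wild type, gl1 and ttg1 591 were lower. The chloroplast median was 0.47 with medians subtracted. The touch and wound median was -0.31 against wild type and gl1 and -0.29 against all 3 other arrays. The auxin median of 0.59 turned to -1.5 with a filter on the mean of gl3 egl3 and wild type. That filter leaves IAA18 alone, so -1.5 is the difference of that gene and not the median of a list. The difference of the gene AR781, -1.36 against wild type, turned to 0.22 against the 3-array mean. Among 178 named genes 2-fold apart, the deposited values kept 90 of 90 higher and 56 of 88 lower past the rule. The upward shift of the deposited gl3 egl3 values favours the higher genes here, and genes named by size were required to pass as deposited. These counts are therefore no check on either direction. Over the settings tried, TRY ran from 2.72 to 3.22, PDF1.2 from 2.51 to 3.15, DFR from -2.32 to -1.17, COR27 from -2.73 to -1.82 and petD from 2.31 to 2.77. STZ ran from -1.85 to -0.19. The causes were not tested. Dim genes are limited by the unequal background of the arrays.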
